A study of Mus musculus with 32 samples.

Results

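The genes of cell death and cell cycle control Casp6, Mcl1, Api5, Ccnd3, Rb1 and Npm1 were followed in prefrontal cortex of mice bred for opposite severity of ethanol withdrawal. They were chosen by name from the spot titles of the array files, with titles that start with EST left out. Each of the 6 genes had 1 spot, so the members were 6 of 4696 gene spots. The spots were cDNA clone 475851 for caspase 6, clone 493170 for myeloid cell leukemia sequence 1, clone 721651 for apoptosis inhibitor 5, clone 635180 for cyclin D3, clone 634818 for retinoblastoma 1 and clone 618905 for nucleophosmin 1.

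Apoptosis is carried out by caspases, proteases that cut cell proteins once a death signal has been given, and proteins of the Bcl-2 family decide at the mitochondrion whether that signal passes. The cell cycle is entered when D-type cyclins switch on their kinases, which phosphorylate the retinoblastoma protein and so free the E2F transcription factors. Most neurons of adult cortex have left the cell cycle, and genes of both machineries have other roles in them. Ethanol exposure and withdrawal are known to cause loss of neurons in rodent brain.

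The WSP mice are withdrawal seizure-prone and the WSR mice are withdrawal seizure-resistant. Both were selected from the genetically heterogeneous HS/Ibg stock, and each was bred as 2 independent lines, WSP-1 and WSP-2 or WSR-1 and WSR-2. EtOH mice were adults given 1.5 g/kg ethanol by injection, with a somewhat larger dose in WSP-2, and then kept in ethanol vapor for 72 hours. Air mice stayed in air chambers for that time. EtOH and Air mice alike received pyrazole (68.1 mg/kg), which slows the breakdown of ethanol, and cortex was collected once 21 days had passed without ethanol. The 8 groups were Female WSP EtOH, Female WSP Air, Female WSR EtOH, Female WSR Air, Male WSP EtOH, Male WSP Air, Male WSR EtOH and Male WSR Air. Each group had 4 arrays, and each array held RNA pooled from 2 animals. Replicates 1 and 2 of a group were pools of its first breeding line, and replicates 3 and 4 were pools of its second. Pools of 1 breeding line are not independent samples of the selection, so the p-values below measure the spread between pools. In such bulk tissue, fewer cells of a type and less RNA per cell cannot be told apart.

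A spot was counted as measured on an array where its intensity was at least 2 times the array's background. The number of gene spots measured was 588 to 1428 on Female WSP arrays and 783 to 1095 on Female WSR arrays. It was 518 to 604 on Male WSP arrays and 1682 to 2040 on Male WSR arrays. The brightest Male WSP array thus lay far below the dimmest Male WSR array, and in males line and overall brightness cannot be told apart. The 6 genes were tested as quantile-normalized log2 intensities among 2084 spots that were measured on at least 4 arrays, and a call is an adjusted p under 0.05 in limma with Benjamini-Hochberg adjustment over those spots. All 6 passed this filter, Casp6 and Rb1 only through Male WSR arrays, since they were measured on 1 and 0 of the other 24. An offset added before the logarithm compresses the differences of dim spots.

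The 6 genes differed in how often they could be measured. Api5 and Npm1 were measured on all 32 arrays. Ccnd3 was measured on 20 arrays, Mcl1 on 15, Casp6 on 9 and Rb1 on 8. On Male WSP arrays Casp6, Mcl1, Ccnd3 and Rb1 were each measured on 0 of 8 arrays, and on Male WSR arrays they were measured on 8, 6, 8 and 8 of 8.

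**Figure D1:**
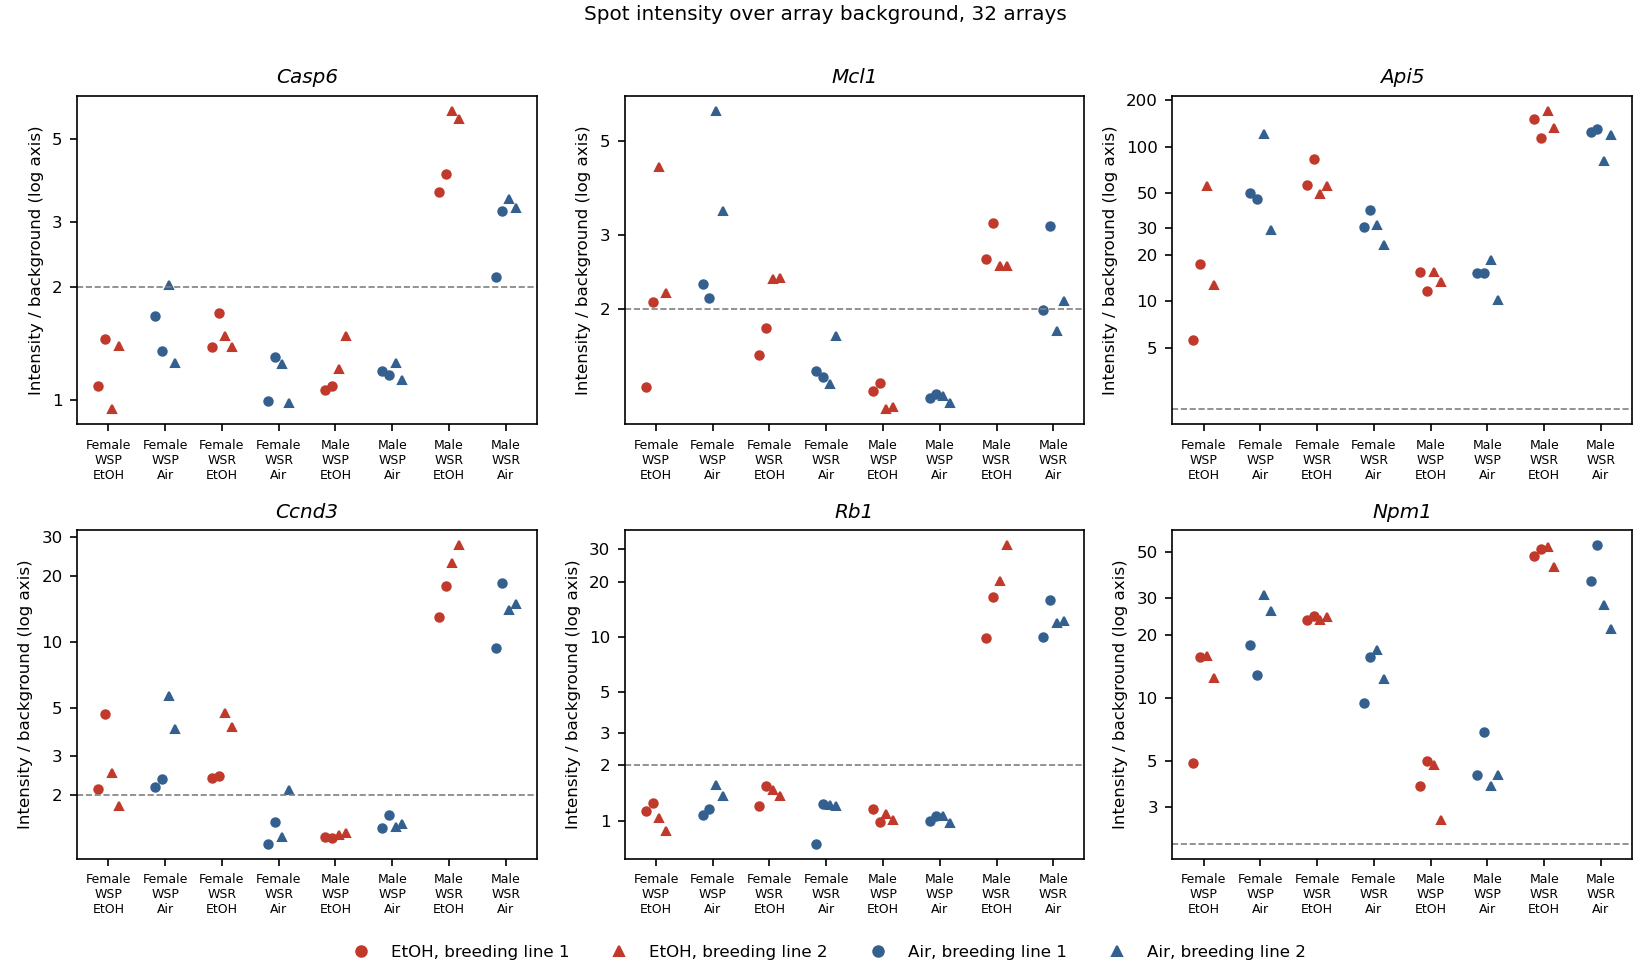
Intensity over array background (log axis) of the 6 spots on each of 32 arrays, with EtOH in red and Air in blue, circles for the first and triangles for the second breeding line, and a dashed line at 2 times background. Rb1 lay above the line on the 8 Male WSR arrays alone, at 9.83 to 31.6, while Api5 and Npm1 lay above it on every array.

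Casp6, the executioner caspase that cleaves nuclear lamins and is linked to the breakdown of axons, stayed near background outside Male WSR mice. Its intensity was 3.60, 4.02, 5.94 and 5.64 times background in Male WSR EtOH mice, against 2.14, 3.20, 3.44 and 3.27 times in Male WSR Air mice. All 4 EtOH ratios lay above all 4 Air ratios, but EtOH arrays of this line were also the brighter ones, with 1834 to 2040 gene spots measured against 1682 to 1979 on Air arrays, whose part in the result was not tested. After normalization the groups overlapped, at 6.09 ± 0.061 in EtOH and 5.99 ± 0.062 in Air (log2 level, SD, n = 4 each), and the difference was not called. Of the 24 arrays from the other 6 groups, only Female WSP Air replicate 3 reached 2 times background, at 2.03 times. Its normalized level in Male WSP EtOH mice was 5.82, 5.85, 6.05 and 6.70, so that 1 pool of WSP-2 stood well above the other 3. That pool was at 1.49 times background, where the spot does not count as measured. The line difference of Casp6 was -0.01 in females and 0.01 in males, and neither was called. In males it was below 0 with cyclic loess, at -0.22, with median scaling, at -0.51, and in the authors' table, at -0.72 score units. Casp6 passed the filter only through Male WSR arrays, so these differences, though past the threshold, are a description.

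Mcl1, a short-lived member of the Bcl-2 family that keeps cells alive, was higher in females of the WSP line than in females of the WSR line. Its normalized log2 level was 6.08, 6.27, 6.94 and 6.31 in Female WSP EtOH mice and 6.46, 6.40, 6.66 and 6.33 in Female WSP Air mice. In Female WSR mice it was 6.06, 6.07, 6.24 and 6.26 with EtOH and 6.10, 5.96, 6.02 and 6.19 with Air. Of the 8 WSP arrays, 7 lay above the mean of the WSR arrays, and the ranges overlapped, since the lowest WSP pool was below the highest WSR pools. The spot was measured on 7 of 8 WSP arrays and on 2 of 8 WSR arrays. WSP averaged 6.43 ± 0.26 and WSR 6.11 ± 0.11 (SD, n = 8 each), a log2 difference of 0.32 ± 0.082 (SE) with an adjusted p of 0.0080 in limma.

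This was the call of 1 of 6 genes in a comparison that called 12.1% of all spots tested. The difference had the same sign in both breeding lines, at 0.38 between WSP-2 and WSR-2 (adjusted p = 0.025 in limma) and 0.26 between WSP-1 and WSR-1 (adjusted p = 0.18). The call did not hold under cyclic loess, median scaling or a fit without the Male WSR arrays, where the difference was 0.21, 0.12 and 0.16. Without replicate 2 or without replicate 3 of every group it was also lost, at 0.32 and 0.19 with an adjusted p of 0.073 and 0.075 in limma.

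In males the normalized level of Mcl1 was 6.23, 6.27, 5.96 and 6.07 in Male WSP EtOH mice and 6.004, 6.04, 6.10 and 6.08 in Male WSP Air mice, on arrays where the spot was never measured. In Male WSR mice it was 5.95, 5.96, 5.90 and 5.90 with EtOH and 5.89, 5.98, 5.84 and 5.91 with Air. WSP averaged 6.10 ± 0.11 and WSR 5.92 ± 0.044 (SD, n = 8 each). All 8 WSP values lay above the WSR mean, and the difference of 0.18 was not called (adjusted p = 0.062 in limma). Its sign turned under median scaling, where it was called at -0.18 (adjusted p = 0.031 in limma), and in the authors' table, at -0.04, where it was not called. With cyclic loess it was called at 0.22 (adjusted p = 0.0079 in limma), and without background correction at 0.44 (adjusted p = 0.018). With an offset of 16 it was called at 0.34 (adjusted p = 0.026 in limma). It was called at 0.18 both with array weights (adjusted p = 0.015 in limma) and with only the arrays compared (adjusted p = 0.0017). It passed the threshold without replicate 3 of every group, at 0.17, and without any 1 of Female WSP EtOH replicate 1, Female WSP EtOH replicate 3 or Male WSP EtOH replicate 3, at 0.18 to 0.21.

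Api5, a nuclear protein that protects cells from death after loss of growth factors, had its lowest group mean in Female WSP EtOH mice. Its normalized level was 8.15, 8.30, 9.16 and 7.77 in Female WSP EtOH mice, against 9.12, 9.34, 9.53 and 8.35 in Female WSP Air mice. All EtOH pools but 1 lay below every Air pool, and the exception, replicate 3 from WSP-2, overlapped the Air pools. The means were 8.34 ± 0.59 and 9.09 ± 0.52 (SD, n = 4 each). The log2 difference of -0.74 ± 0.22 (SE) had a p of 0.0022 in limma and an adjusted p of 0.109. It was thus not called with quantile normalization and no block. Under median scaling it was called at -1.505 (adjusted p = 0.0080 in limma), where the median difference over all spots tested was -0.12. With breeding line as a block it was not called (adjusted p = 0.0995). Each EtOH pool lay below the Air pool of the same number, and with the replicate number as a block the difference was called at -0.74 (adjusted p = 0.034). Whether equal numbers pair EtOH with Air arrays was not settled, since 6 of 16 such pairs were most like their own number.

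The same difference was -1.002 in WSP-1 and -0.48 in WSP-2. It was called without Female WSP EtOH replicate 3, at -0.999 with an adjusted p of 0.030 in limma, and without Female WSP Air replicate 4, at -0.98 with an adjusted p of 0.015. In raw intensities too, replicate 3 was the one EtOH pool above an Air pool. Api5 was at 5.63, 17.4, 55.5 and 12.7 times background in Female WSP EtOH mice and at 49.8, 45.8, 120 and 29.0 times in Female WSP Air mice. The EtOH arrays of this line were also the dimmer ones, with 588 to 1028 gene spots measured against 857 to 1428 on Air arrays, and the part of that brightness in the result was not tested.

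In the other groups the ethanol difference of Api5 was smaller and not called. It averaged 9.13 ± 0.29 in Female WSR EtOH mice and 9.01 ± 0.10 in Female WSR Air mice. In males of the WSP line it averaged 9.20 ± 0.19 with EtOH and 9.09 ± 0.15 with Air. In males of the WSR line it averaged 9.43 ± 0.33 with EtOH and 9.42 ± 0.18 with Air (log2 level, SD, n = 4 for each group). In the order of levels, Female WSR Air, Female WSP Air, Male WSP Air, Female WSR EtOH and Male WSP EtOH were neighbours whose means differed by less than their SDs, as were Male WSR Air and Male WSR EtOH, while Male WSP EtOH and Male WSR Air differed by more than either SD. The line difference was -0.36 in females (adjusted p = 0.151 in limma) and -0.28 in males (adjusted p = 0.129), and neither was called, although all 8 Male WSP values lay below the Male WSR mean. In males it turned in the authors' table and was called there, at 1.20 score units (adjusted p = 0.00028 in limma). It was called below 0 in males with median scaling, at -2.66 (adjusted p = 1.2e-11), where the median difference over all spots tested was -0.69. With only the arrays compared it was called in males at -0.28 (adjusted p = 0.023). In females it was called with median scaling, at -1.04, without replicate 3 of every group, at -0.64, and without Female WSP EtOH replicate 3, at -0.48.

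**Figure D2:**
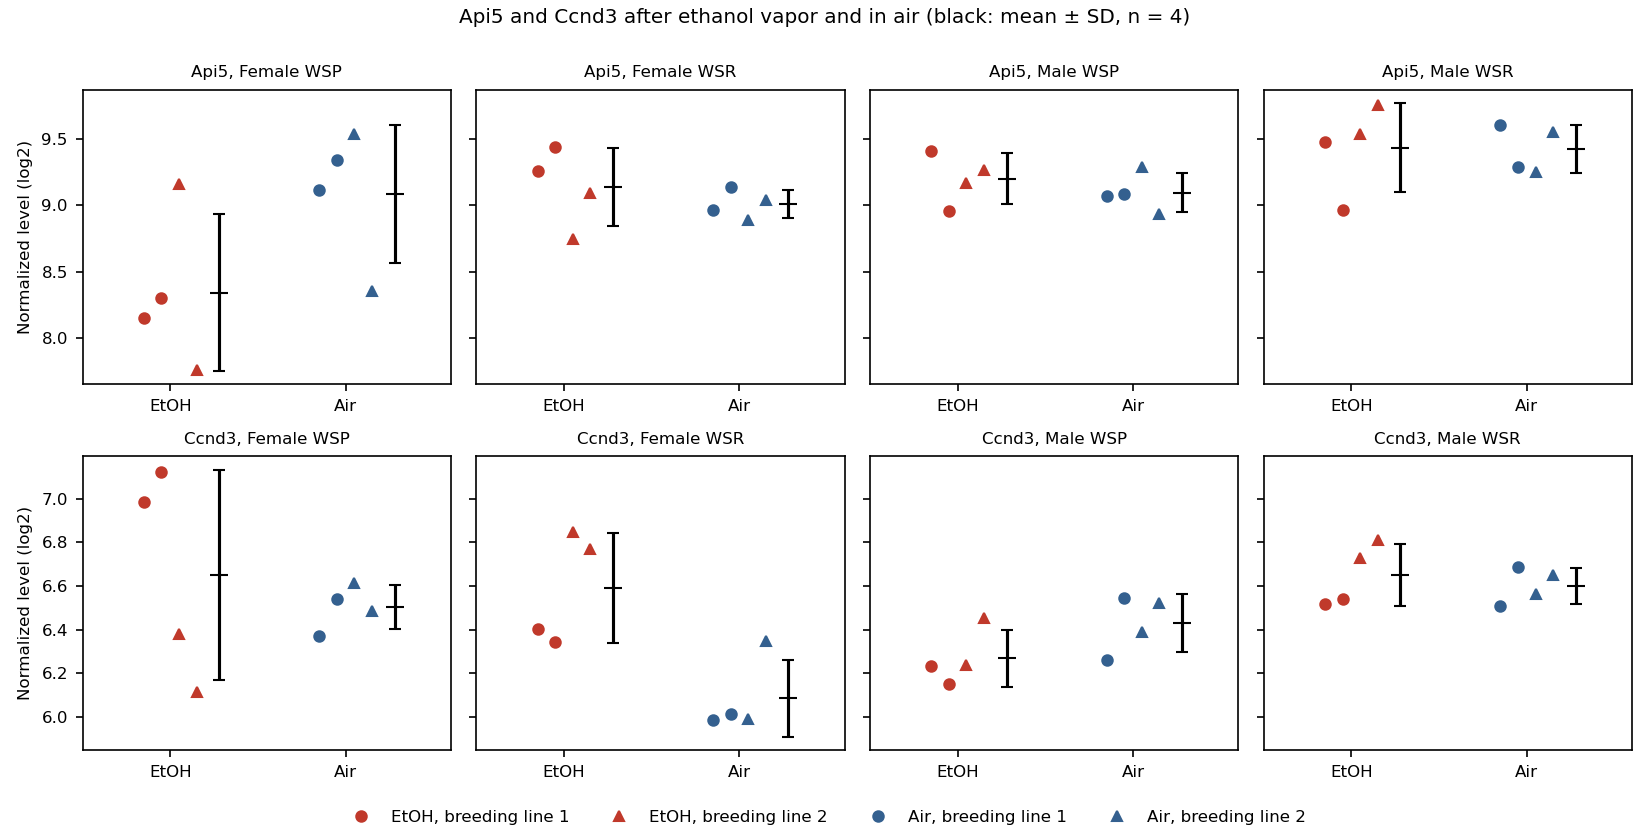
Normalized log2 level of Api5 (top) and Ccnd3 (bottom) in each sex and line, EtOH in red on the left and Air in blue on the right, with circles and triangles for the first and second breeding line and black marks for the mean ± SD of 4 arrays. Api5 averaged 8.34 with EtOH and 9.09 with Air in Female WSP mice, and Ccnd3 averaged 6.59 with EtOH and 6.08 with Air in Female WSR mice.

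Ccnd3, the D-type cyclin that activates the kinases acting on the retinoblastoma protein, was the other gene with a sizeable ethanol difference, in females of the WSR line. Its normalized level was 6.40, 6.35, 6.85 and 6.77 in Female WSR EtOH mice, against 5.98, 6.01, 5.99 and 6.35 in Female WSR Air mice. All 4 EtOH pools lay above 3 of the Air pools, and the remaining Air pool, replicate 4, was level with the lowest EtOH pool. The log2 difference was 0.51 ± 0.16 (SE), with a p of 0.0027 in limma and an adjusted p of 0.267, so it was not called. The spot was measured on all 4 EtOH arrays, at 2.39 to 4.70 times background, and on 1 of 4 Air arrays, at 1.19 to 2.09 times. EtOH arrays of this line were brighter, with 940 to 1095 gene spots measured against 783 to 922, and the part of that brightness in the result was not tested.

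In Female WSP mice the ethanol difference of Ccnd3 had opposite signs in the breeding lines. In WSP-1 its level was 6.99 and 7.13 with EtOH, against 6.37 and 6.54 with Air, and in WSP-2 it was 6.38 and 6.11 with EtOH, against 6.61 and 6.49 with Air. The pools did not overlap in either line. The difference was 0.60 in WSP-1 (adjusted p = 0.051 in limma) and -0.30 in WSP-2 (adjusted p = 0.37), and over both it was 0.15 (adjusted p = 0.797). In Female WSR mice both breeding lines had the same sign, at 0.38 in WSR-1 and 0.64 in WSR-2. With 2 pools on each side within a breeding line, these values are a description, and the difference between WSP-1 and WSP-2 was not tested.

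Over both treatments Ccnd3 in females was 6.58 ± 0.33 in WSP and 6.34 ± 0.34 in WSR (SD, n = 8 each), a difference of 0.24 that was not called (adjusted p = 0.167 in limma). This difference was 0.57 between WSP-1 and WSR-1 and -0.09 between WSP-2 and WSR-2, and its sign turned with median scaling, at -0.034. It was called without replicate 4 of every group, at 0.39, and without Female WSP EtOH replicate 4, at 0.33. In males the spot was at 1.27 to 1.61 times background in WSP mice and at 9.32 to 27.6 times in WSR mice. Its normalized level in Male WSP mice was 6.27 ± 0.13 with EtOH and 6.43 ± 0.13 with Air, and in Male WSR mice it was 6.65 ± 0.14 with EtOH and 6.60 ± 0.082 with Air (SD, n = 4 each).

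**Figure D3:**
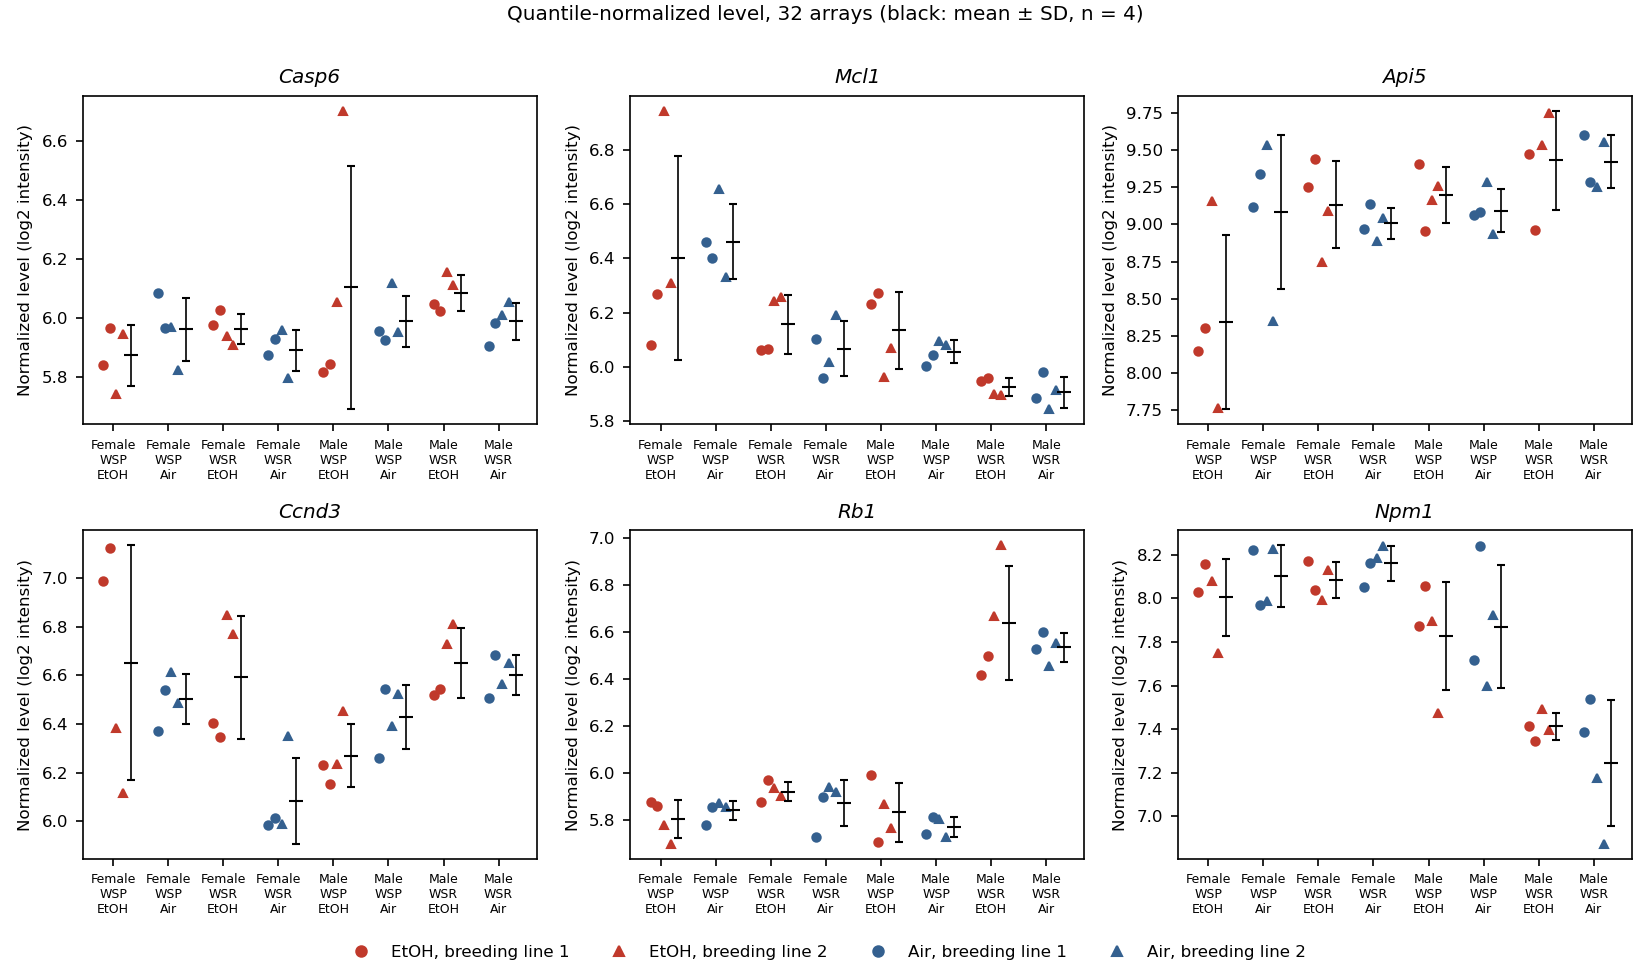
Normalized log2 level of the 6 spots in the 8 groups, 4 arrays each, with EtOH in red and Air in blue, circles and triangles for the first and second breeding line, and black marks for the mean ± SD. The Rb1 values of Male WSR mice, 6.42 to 6.97, lay above all values of the other groups, which ended at 5.99.

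Rb1, which holds E2F factors in check and so blocks entry into the cell cycle, could be measured in males of the WSR line and in no other sex and line. Its intensity was 9.83, 16.5, 20.1 and 31.6 times background in Male WSR EtOH mice and 10.05, 15.9, 11.9 and 12.2 times in Male WSR Air mice. On the 8 Male WSP arrays it was between 0.968 and 1.16 times background. On Female WSP arrays it was between 0.882 and 1.57 times and on Female WSR arrays between 0.749 and 1.55 times. The lowest Male WSR ratio was above the highest of the other 24 arrays. Within Male WSR mice the normalized level was 6.64 ± 0.24 with EtOH and 6.54 ± 0.062 with Air (SD, n = 4 each), and the groups overlapped.

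The normalized level of Rb1 was 5.80 ± 0.093 in Male WSP mice and 6.59 ± 0.17 in Male WSR mice (SD, n = 8 each), and the ranges did not overlap. The fitted difference was -0.78 ± 0.060 (SE). Rb1 passed the filter only through the Male WSR arrays, where it was high, so this difference is a description and its p is not given. Since the spot was not well above background on any Male WSP array, and its mean level in Male WSR mice lay under the mean level at which spots reached 2 times background on Male WSP arrays, no fold is given. In this comparison 58.3% of all spots tested were called. Beside Rb1, Ccnd3 was called lower and Npm1 higher in WSP. In Female WSP and Female WSR mice, where Rb1 was measured on 0 of 16 arrays, the difference of -0.07 was not called. The sign for Rb1 in males was the same in both breeding lines, at -0.70 between WSP-1 and WSR-1 and -0.87 between WSP-2 and WSR-2. It was also the same under each scaling, at -0.56 with cyclic loess and -1.91 with median scaling. These values belong to the same description, since Rb1 entered each fit only through the arrays where it was high.

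Many spots were measured on the same arrays as Rb1. Of the 2084 spots tested, 252 (12.1%) were measured on all 8 Male WSR arrays and on none of the other 24. Their median intensity over Male WSR arrays was 4.88 times background, and Rb1, at 14.1 times, ranked 14 from the brightest.

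Rank on the array does not use the background. On Male WSR arrays Rb1 stood at percentile 82.8 to 87.8 of all gene spots. On Male WSP arrays it stood at percentile 12.5 to 71.3, on Female WSP arrays at 9.73 to 62.0 and on Female WSR arrays at 23.04 to 69.9. A gene spot had to reach percentile 87.1 to 89.0 on Male WSP arrays, 69.6 to 87.5 on Female WSP arrays and 76.7 to 83.3 on Female WSR arrays to be at 2 times background, but only 56.6 to 64.2 on Male WSR arrays. Rb1 thus ranked higher on every Male WSR array than on any other array. The ranks come from the same intensities through which Rb1 passed the filter, so they too are a description. Below background the order of spots is noise, which limits these ranks in the other 3 combinations of sex and line.

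**Figure D4:**
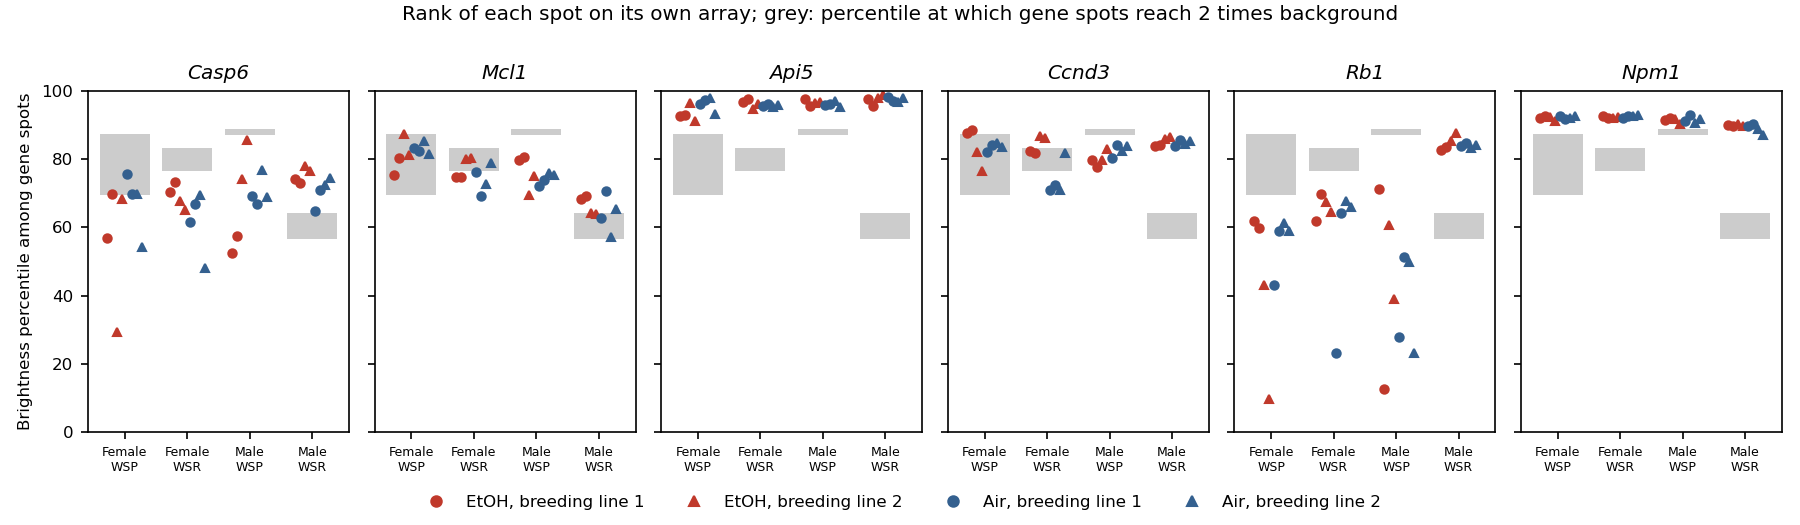
Brightness percentile of each spot among the gene spots of its own array, by sex and line, with EtOH in red and Air in blue, circles and triangles for the first and second breeding line, and a grey band for the percentile at which gene spots reach 2 times background. Rb1 was at 82.8 to 87.8 on Male WSR arrays and at 12.5 to 71.3 on Male WSP arrays, while Api5 stayed at 91.3 or higher on all arrays.

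For Ccnd3 the male call was less firm. Male WSP mice averaged 6.35 ± 0.15 and Male WSR mice 6.63 ± 0.11 (SD, n = 8 each), and the fitted difference was -0.28 ± 0.11 (SE) with an adjusted p of 0.031 in limma. All 8 WSP values lay below the WSR mean, but the ranges overlapped, and no fold is given because the spot was not measured on Male WSP arrays. The sign turned under cyclic loess, at 0.20, and the call was lost without replicate 1, without replicate 2 or without replicate 3 of every group, with an adjusted p of 0.075, 0.065 and 0.12 in limma. It was also lost without any 1 of 6 single arrays, with an adjusted p of 0.053 to 0.068, namely Male WSP EtOH replicate 2, Male WSP Air replicate 1, Male WSR EtOH replicates 3 and 4, and Male WSR Air replicates 2 and 4.

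Npm1, a nucleolar chaperone of ribosome assembly that also binds regulators of p53, was measured on all arrays, and its male difference depended on the scaling. Its normalized level was 7.87, 8.06, 7.90 and 7.47 in Male WSP EtOH mice and 7.72, 8.24, 7.60 and 7.92 in Male WSP Air mice. In Male WSR mice it was 7.42, 7.34, 7.49 and 7.40 with EtOH and 7.39, 7.54, 7.17 and 6.87 with Air. All 8 WSP values lay above the WSR mean, and only the lowest WSP pool, with EtOH, fell among the WSR pools. WSP averaged 7.85 ± 0.25 and WSR 7.33 ± 0.21 (SD, n = 8 each), a log2 difference of 0.52 ± 0.097 (SE) with an adjusted p of 2.98e-05 in limma.

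The raw intensities of Npm1 ran the other way, at 2.61 to 6.90 times background in Male WSP mice and 21.5 to 54.0 times in Male WSR mice. Its sign turned and it was called with median scaling, at -2.31 (adjusted p = 3.1e-13 in limma), and in the authors' table, at -0.52 score units (adjusted p = 0.030). With cyclic loess it turned, at -0.12, and was not called (adjusted p = 0.32). Each scaling sets a different level for the whole array: the median difference of all spots tested between WSP and WSR males was -0.69 with median scaling and -0.05 with cyclic loess. In Female WSP mice Npm1 averaged 8.004 ± 0.18 with EtOH and 8.10 ± 0.14 with Air, and in Female WSR mice it averaged 8.08 ± 0.082 with EtOH and 8.16 ± 0.080 with Air (SD, n = 4 each). Over both treatments it was 8.05 ± 0.16 in WSP and 8.12 ± 0.085 in WSR (SD, n = 8 each), and the difference of -0.07 was not called (adjusted p = 0.738 in limma).

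**Figure D5:**
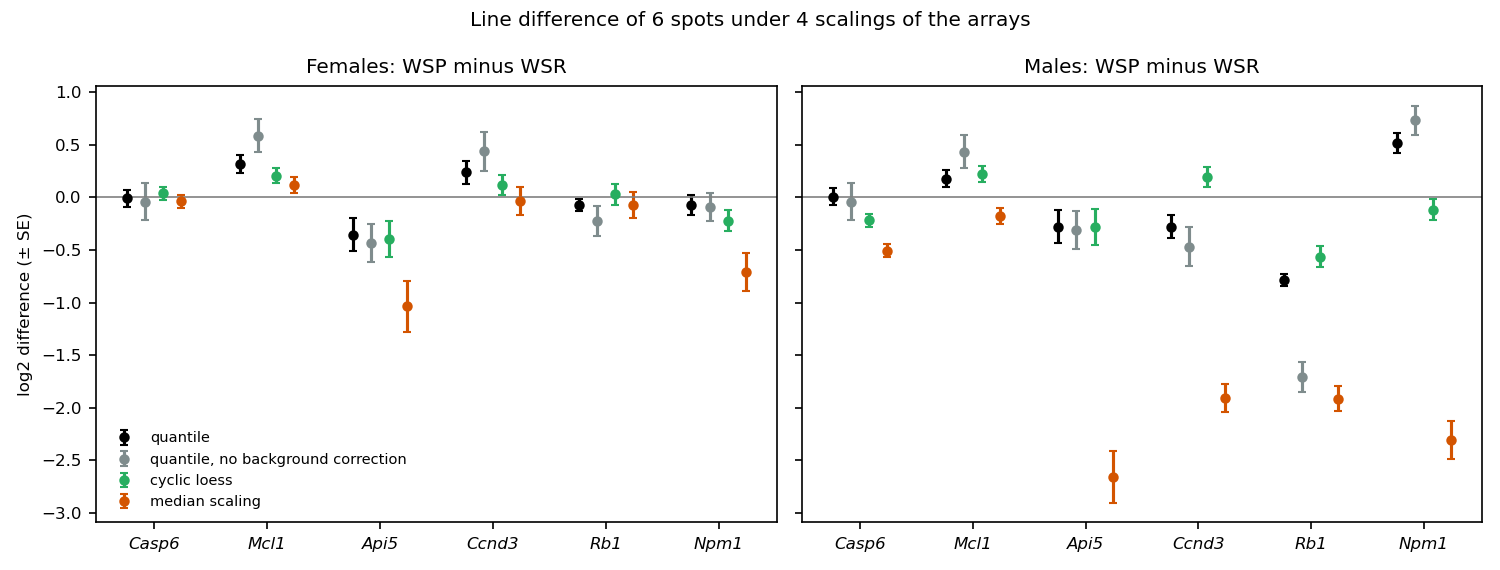
Fitted log2 difference, WSP minus WSR, of the 6 spots in females (left) and males (right) under 4 scalings of the arrays, with bars for ± 1 SE. In males the Npm1 difference was 0.52 with quantile normalization and -2.31 with median scaling. Rb1, which entered the fit only through Male WSR arrays, was below 0 under all 4.

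The line difference of males minus that of females was called for Npm1 and Ccnd3, in a comparison that called 53.1% of all spots tested. It was 0.59 ± 0.14 for Npm1 (adjusted p = 0.00063) and -0.52 ± 0.16 for Ccnd3 (adjusted p = 0.0059), both in limma. For Rb1, which entered the fit only through Male WSR arrays, it was -0.71 ± 0.084 and is given as a description. For Npm1 it turned with median scaling, where it was called at -1.60 (adjusted p = 1.9e-06 in limma), and in the authors' table, at -0.25, where it was not called. With cyclic loess it kept its sign for Npm1, at 0.10, but was not called (adjusted p = 0.58 in limma). For Ccnd3 it turned with cyclic loess, at 0.08, and was not called. The call for Ccnd3 was also lost without replicate 1 or replicate 2 of every group, at -0.46 and -0.39. Within breeding line 2 it was lost too, at -0.20 (adjusted p = 0.27 in limma).

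With quantile normalization, no block and all 32 arrays, ethanol gave no call for any of the 6 genes. Counts were 0 of 6 in Female WSP mice, where 0.384% of all spots tested were called, 0 of 6 in Female WSR and 0 of 6 in Male WSP mice, where 0.048% were, and 0 of 6 in Male WSR mice, where 0% were. With median scaling Api5 was called in Female WSP mice, where 148 of 2084 spots were, and Casp6 in Male WSR mice, where 143 were. For the difference of the ethanol response median scaling called 4 of the 6 and 570 of all spots. With a replicate block Api5 was called in Female WSP mice, where 15 of all spots were. In Male WSR mice limma called 0 spots at an adjusted p under 0.05, while 64 had an unadjusted p under 0.05. Beside Api5 in Female WSP and Ccnd3 in Female WSR mice, the remaining 22 differences lay between -0.16 and 0.17, with a smallest adjusted p of 0.797. Averaged over sexes and lines, the differences lay between -0.13 and 0.14, and 0 of 6 were called, with 0% of all spots called and 98 at an unadjusted p under 0.05. For the difference of the ethanol response between WSP and WSR, all 6 values were below 0, from -0.39 for Api5 to -0.05 for Mcl1, and 0 of 6 were called, against 0.24% of all spots tested.

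The breeding lines of 1 selection also gave no call for these genes. For WSP-2 minus WSP-1 0 of 6 were called, with 0% of all spots and 225 at an unadjusted p under 0.05, and for WSR-2 minus WSR-1 0 of 6 were called, with 0.048% of all spots. Ccnd3 had the largest of these 12 differences, 0.21 higher in WSR-2 than in WSR-1, with a p of 0.0071 and an adjusted p of 0.20 in limma. Its level was 6.49 ± 0.40 in females and 6.69 ± 0.11 in males of WSR-2, against 6.19 ± 0.22 in females and 6.56 ± 0.083 in males of WSR-1 (SD, n = 4 each).

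Other genes of the same pathways were sparse on the arrays. Of 11 other apoptosis spots 1 passed the filter, Mdm2, the ubiquitin ligase that restrains p53. Mdm2 was called higher in Male WSP than in Male WSR mice, at 0.64 with an adjusted p of 0.00016 in limma, although it was measured on 1 of 8 WSP arrays and on 8 of 8 WSR arrays, and it turned with median scaling, at -0.62, and in the authors' table, at -0.17. Of 25 other cell cycle spots 12 passed, and 6 of these passed only through Male WSR arrays, with 0 to 2 of the other 24 arrays measured. Through that filter they were measured where they are high, so their 6 calls, all lower in Male WSP mice, are a description. Of the 6 that passed without Male WSR arrays, 1 was called lower and 3 higher in Male WSP mice, where 34% of all spots tested were called lower and 24.4% higher. In females 1 of the 12 was called, beside 12.1% of all spots. It was cyclin G2, which was lower in WSP at -0.31 with an adjusted p of 0.012 in limma. Its spot was measured on 3 of 8 Female WSP and 4 of 8 Female WSR arrays. The call was lost within breeding line 1, at -0.23 (adjusted p = 0.30 in limma), and held in 34 of 36 fits with arrays left out.

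The 7 that were lower in Male WSP mice are listed with their fitted differences. Cyclin-dependent kinase 2, which phosphorylates the retinoblastoma protein, had a fitted difference of -0.86 on 1 of its spots. Its other spot was measured on 0 arrays, Male WSR arrays included, and was not tested. Retinoblastoma-like 2, a second pocket protein, had a fitted difference of -0.32. Cell division cycle 37 homolog, a co-chaperone of kinases, had -0.65, and cell division cycle 2 homolog-like 2 had -0.39. The cyclin-dependent kinase regulatory subunit 1 had -0.28, which turned in the authors' table, at 0.34, the kinase inhibitor 1C had -0.20 and proliferating cell nuclear antigen, the sliding clamp of DNA replication, had -0.10. All but the regulatory subunit passed the filter only through Male WSR arrays and were measured on 0 of 8 Male WSP arrays, so these are descriptions and no folds.

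The 3 that were higher were replication protein A2, which coats single-stranded DNA, at 0.73, DNA-damage inducible transcript 3, a transcription factor of the stress response, at 0.58, and the checkpoint kinase Bub1b at 0.27, which was measured on 0 of 8 Male WSP arrays and turned with median scaling and in the authors' table, at -0.74 in both. The first and second of these were measured on all 32 arrays and turned with median scaling, at -2.11 and -2.23. With cyclic loess neither of them was called, at 0.16 and 0.039 (adjusted p = 0.30 and 0.75 in limma). No gene of these lists was called in any of the 6 ethanol comparisons. The smallest p there belonged to the regulatory subunit 1, Bub1b and cyclin G2 in the difference of ethanol response between WSP and WSR, at -0.42, -0.45 and -0.36, each with an adjusted p of 0.204 in limma. The tested spot of cyclin-dependent kinase 2 was at 0.15 for ethanol averaged over sexes and lines (adjusted p = 0.857). Mdm2 was at -0.34 for ethanol in Female WSP mice (adjusted p = 0.489).

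Markers of the cell types of cortex were measured beside these genes. On 13 marker spots, of which 9 passed the filter, 3 were called higher and 3 lower in Male WSP than in Male WSR mice, where 58.3% of all spots tested were called. Among the lower, lymphocyte protein tyrosine kinase was measured on 0 arrays outside Male WSR and hemoglobin beta on 1. Both were tested only through Male WSR arrays, so their calls are a description. In females 0 were called between lines, and 0 in the ethanol comparison of each sex and line. For the difference of the ethanol response between WSP and WSR, 1 was called higher, the vessel marker endoglin, at 0.74 with an adjusted p of 0.040 in limma. For males minus females, 2 were called higher, hemoglobin alpha and synapsin I, where 53.1% of all spots were called. The 1 called lower was lymphocyte protein tyrosine kinase, again as a description. The summed signal to background of the 2 neuron spots was 2.75 to 3.74 on Male WSP and 17.8 to 41.1 on Male WSR arrays. It was 2.88 to 7.76 on Male WSP and 28.7 to 83.0 on Male WSR arrays for the astrocyte spot, glutamine synthetase, and 2.03 to 2.45 on Male WSP and 20.5 to 42.8 on Male WSR arrays for the 2 leukocyte spots. Only 1 leukocyte spot was tested, lymphocyte protein tyrosine kinase. The male ranges overlapped for the 2 oligodendrocyte spots, at 2.11 to 2.604 on Male WSP and 2.44 to 12.5 on Male WSR arrays. They also overlapped for the vessel spot, at 1.06 to 1.58 on Male WSP and 1.396 to 3.495 on Male WSR arrays. For the choroid plexus and blood spots they did not overlap and were higher on Male WSR arrays. The part of these marker sums in the male differences was not tested.

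On the 24 arrays that are not Male WSR, the titled spots most like each member in pattern were found among 141 candidates measured on at least 12 of them. For Api5 it was Sh3 domain YSC-like 1, with a Pearson r of 0.64 and a Spearman rho of 0.55 over the 24 arrays, and next Copz2, with r 0.54. For Ccnd3 it was wee 1 homolog, the kinase that delays mitosis, with r 0.57 and rho 0.34, and for Npm1 it was the coagulation factor II receptor-like 3, with r 0.66 and rho 0.50. These values describe arrays that share groups and brightness, and the median r over candidates was between -0.03 and 0.07. Casp6, Mcl1 and Rb1 were measured on too few of these arrays.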

How the data were processed

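The authors deposited, per array, a spot intensity and 1 background intensity that had not been subtracted. Per the labels, targets were labelled with 33P by oligo-dT primed reverse transcription; the sources used here do not give the platform or image software. A deposited table held the authors' scores, which are linear in the log2 intensity of each array by itself, so its differences are in score units. Intensities of all spots were corrected with normexp (offset 50), moved to log2 and quantile normalized over gene spots. The filter asked for 2 times background on 4 arrays or more and left 2084 spots. In limma 3.58.1 (R 4.3.3), 1 mean was fitted per group over 32 arrays, with an intensity trend, for 11 comparisons (a mean per sex, breeding line and treatment for the breeding lines), with Benjamini-Hochberg adjustment. The fit was tested on simulated data. Named were the 6 genes, other genes of fixed title lists that were called or had the smallest ethanol p, and the spots most like each member. Members and lists were chosen with earlier results of these data known. Alternatives were other scalings, background settings and filters, the authors' table, blocks, weights, breeding lines and left-out arrays. The number of arrays limits the precision. Promoter and clone sequences are not shown.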

Additional observations from a re-analysis of the deposited data

Results flagged for a closer look

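In Ccnd3, Female WSR Air replicate 4 stood apart from the other 3 pools of its group, at a log2 level of 6.35 against 5.98 to 6.01. In Casp6, Male WSP Air replicate 3 stood apart at 6.12 against 5.93 to 5.96, on an array where the spot was not measured. Of 48 groups of 4 arrays examined this way, 2 held such an array, and chance gives about 5%. The line difference of males minus that of females was past the threshold for Rb1, at -0.71 on a spot tested only through Male WSR arrays, for Ccnd3, at -0.52, and for Npm1, at 0.59, with the brightness of Male WSR arrays moving beside it, whose part was not tested.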

How the results depend on the processing

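Counts of called genes moved as follows, and the cause was not tested. With median scaling, counts of the 6 genes are given beside counts over all 2084 spots tested. For ethanol, 1 was called in Female WSP mice (Api5, 148 spots) and 1 in Male WSR mice (Casp6, 143 spots). For the difference of the ethanol response 4 were called (570 spots). Between lines, 2 were called in females (759 spots), 6 in males (1805 spots) and 6 for males minus females (1614 spots). These 6 take in Casp6 and Rb1, which were tested only through Male WSR arrays. For WSP-2 minus WSP-1 1 was called (243 spots) and for WSR-2 minus WSR-1 3 were (447 spots). With cyclic loess 0 were called between lines in females (148 spots) and 1 for WSR-2 minus WSR-1 (107 spots). The authors' table gave calls for 5 in males (1264 of 2050 spots) and for 5 in males minus females (1009 of 1913 spots). Both counts take in Casp6 and Rb1, which were tested only through Male WSR arrays. With only the arrays compared, 0 were called in females (137 spots) and 5 in males (1388 spots), Rb1 among them. In females 0 were called without the Male WSR arrays (168 spots) and with a filter of 16 arrays (76 spots), where 3 of the 6 genes were tested. Leaving out arrays gave 0 to 1 genes for ethanol in Female WSP mice, 0 to 2 in females, 2 to 4 in males and 2 to 3 for males minus females.

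Signs turned in these cases, and some of the turned differences were themselves called. With median scaling, 1804 of 2084 spots were called lower in Male WSP than in Male WSR mice. Ccnd3 in females was -0.034 with median scaling and -0.090 within breeding line 2; in males it was 0.20 and for males minus females 0.080 with cyclic loess. Mcl1 in males was -0.18 with median scaling and -0.041 in the authors' table. Api5 in males was 1.20 in the authors' table. Npm1 in males was -2.31, -0.12 and -0.52 with median scaling, cyclic loess and the authors' table, and for males minus females -1.60 and -0.25 with median scaling and the authors' table. In males Mdm2 was -0.62 and -0.17, and Bub1b -0.74 and -0.74, with median scaling and the authors' table. The regulatory subunit 1 was 0.34 in the authors' table, DNA-damage inducible transcript 3 was -2.23 and replication protein A2 -2.11 with median scaling.

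Whether pool numbers pair EtOH with Air arrays was not settled. Correlations of deviations within same-number pairs ran from -0.10 to 0.41. Of 16 such pairs, 5 were over 0.1, and 6 were most like their own number. The largest were 0.40 and 0.41, in Male WSR replicates 1 and 4. With a replicate block 1 of the 6 was called for ethanol in Female WSP mice, Api5, at -0.74 (adjusted p = 0.034 in limma), where 15 of all spots were. Dim signal limits Rb1, Casp6, Mcl1 and Ccnd3 on Male WSP arrays.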
